A study of Mus musculus with 12 samples.

Results

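Immunoglobulin variable (V) segments were followed in bone marrow RNA of 12 mice with the Shp2E76K/+;LysM-Cre+ genotype. The segments were taken as the genes of the count table annotated as immunoglobulin V genes with at least 100 reads summed over the 12 libraries. The limit left 176 of the 218 V genes, and of 56350 genes in all. They comprised 91 heavy chain segments (names starting Ighv, chromosome 12), 82 kappa segments (Igkv, chromosome 6) and 3 lambda segments (Iglv, chromosome 16). Of the 42 V genes left out, 5 had no read, 37 had fewer than 100, and together they held 1434 reads against 412619 in the 176 segments. Just inside the limit lay Igkv7-33 with 104 reads, Ighv3-5 with 113 and Ighv1-23 with 114. Just outside it lay Ighv1-43 with 97, Igkv4-69 with 89 and Ighv1-67 and Igkv9-129 with 83 each. The segments were thus chosen by a measured value, the summed read number, so their abundance over all libraries is a description and was not tested.

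All 12 mice were C57BL/6, 12 to 14 weeks old, and carried the E76K allele of the gene for the phosphatase Shp2 together with LysM-Cre, in which the lysozyme gene drives Cre in myeloid cells. The vehicle controls carried the same alleles, and no mouse without the mutant allele was included. Groups of 3 mice received vehicle, PD-901 (the MEK inhibitor PD0325901, 5 mg/kg by mouth, 20 doses in 4 weeks), 5-azacitidine (an inhibitor of DNA methylation, 5 mg/kg into the peritoneum, 5 doses in 4 weeks) or both drugs, called the combination. V segments are transcribed in B lineage cells, which are not the cells in which LysM-Cre is mainly active. The labels do not say whether the mice of a group were littermates, and p-values measure the spread between these mice.

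A B cell builds its antibody genes during development by joining 1 V segment to a J segment, and for the heavy chain also a D segment, in reactions begun by the Rag1 and Rag2 recombinase. Each B cell clone thereafter transcribes mainly the heavy and the light V segment it chose, so the mixture of V transcripts in a tissue reflects its B lineage cells. Plasma cells, which secrete antibody and reside in the marrow, hold far more immunoglobulin RNA per cell than B cells or their precursors. In bulk RNA, fewer cells of a type and less RNA per cell cannot be told apart.

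The V exons of 4 segments (their last 300 bases where longer) are shown because the results turn on them: Ighv11-2 and Igkv14-126, which rose in the combination group, and Ighv1-4 and Igkv19-93, which led 1 vehicle library. Sequences and coordinates are those of GENCODE M21 on mouse build mm10, read 5′ to 3′ along the gene. The capitals mark the last in-frame cysteine codon in the final 45 coding bases, near which the V segment ends and the joined part begins. Such a codon was found in 174 of the 176 segments (not in Ighv1-18 and Ighv8-12).
Ighv11-2 (chr12:114048241-114048540, minus strand): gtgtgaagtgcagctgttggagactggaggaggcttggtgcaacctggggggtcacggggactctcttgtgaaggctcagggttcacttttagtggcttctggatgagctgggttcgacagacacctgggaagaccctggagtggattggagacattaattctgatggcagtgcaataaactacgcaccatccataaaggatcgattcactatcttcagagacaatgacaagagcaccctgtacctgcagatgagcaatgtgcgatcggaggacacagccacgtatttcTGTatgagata
Igkv14-126 (chr6:67896345-67896642, plus strand): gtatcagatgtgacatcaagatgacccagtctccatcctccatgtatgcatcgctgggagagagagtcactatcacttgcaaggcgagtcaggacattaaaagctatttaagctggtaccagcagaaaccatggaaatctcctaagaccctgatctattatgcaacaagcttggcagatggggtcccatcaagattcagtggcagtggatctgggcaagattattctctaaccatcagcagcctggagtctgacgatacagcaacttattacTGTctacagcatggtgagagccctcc
Ighv1-4 (chr12:114487136-114487435, minus strand): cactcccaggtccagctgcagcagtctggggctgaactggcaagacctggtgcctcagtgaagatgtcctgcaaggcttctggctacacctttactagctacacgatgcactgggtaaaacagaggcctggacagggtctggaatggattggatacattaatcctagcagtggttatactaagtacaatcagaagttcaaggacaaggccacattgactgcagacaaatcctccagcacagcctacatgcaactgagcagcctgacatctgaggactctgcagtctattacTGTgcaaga
Igkv19-93 (chr6:68736297-68736591, minus strand): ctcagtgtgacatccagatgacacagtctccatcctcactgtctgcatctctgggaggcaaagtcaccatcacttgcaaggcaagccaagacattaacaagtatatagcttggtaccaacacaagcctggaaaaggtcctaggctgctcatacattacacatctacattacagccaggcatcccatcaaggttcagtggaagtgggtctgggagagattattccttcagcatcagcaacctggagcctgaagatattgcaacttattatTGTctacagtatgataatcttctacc

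The last 60 coding bases are shown for 7 further segments: Igkv4-90, Igkv3-9 and Ighv2-6-8, shown for their values in the combination group, the heavy and kappa segments with most reads (Ighv3-6 and Igkv10-96), and the lambda segments Iglv1 and Iglv2, which are near copies of each other.
Igkv4-90 (chr6:68807179-68807238, minus strand): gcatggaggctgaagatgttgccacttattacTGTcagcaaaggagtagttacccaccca
Igkv3-9 (chr6:70588718-70588777, plus strand): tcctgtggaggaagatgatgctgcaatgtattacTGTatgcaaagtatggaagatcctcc
Ighv2-6-8 (chr12:113796143-113796202, minus strand): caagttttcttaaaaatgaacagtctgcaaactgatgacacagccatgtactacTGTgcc
Ighv3-6 (chr12:114288157-114288216, minus strand): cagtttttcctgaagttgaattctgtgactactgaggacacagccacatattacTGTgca
Igkv10-96 (chr6:68631963-68632022, minus strand): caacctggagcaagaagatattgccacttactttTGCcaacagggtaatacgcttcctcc
Iglv1 (chr16:19085017-19085076, minus strand): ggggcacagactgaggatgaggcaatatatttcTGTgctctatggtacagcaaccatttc
Iglv2 (chr16:19260401-19260460, minus strand): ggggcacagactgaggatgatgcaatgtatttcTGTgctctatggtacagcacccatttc

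Many V segments resemble each other closely, which bears on how reads were assigned. The median segment was 92.9% identical over its coding bases to its nearest relative among the 176, and 66 segments had a relative at 95% or more. Iglv1 and Iglv2 were 96.3% identical, and Ighv1-62-2 and Ighv1-71 were identical (100%). Of the windows of 50 bases along a segment's transcript, a median of 76.6% occurred in no other immunoglobulin transcript, and in 25 segments fewer than 50% did. The sources used here do not say how the authors counted reads that match several genes. Values of those 25 segments are therefore uncertain. Igkv14-126, Igkv4-90, Igkv19-93, Igkv1-88 and Igkv5-39 had only windows of their own (100%), Ighv11-2 had 61.4%, Igkv3-9 79.4%, Ighv2-6-8 63.1% and Ighv1-4 66.2%. Igkv3-10 with 48.9%, Ighv1-50 with 47.8%, Igkv4-79 with 44.7%, Igkv3-12 with 41.6% and Igkv6-20 with 35.9% are among the uncertain ones, as is Ighv1-72 with 7.49%.

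The libraries held 15356919 to 27148190 counts, of which 15503 to 59000 fell in the V segments. Levels are given in CPM, read counts scaled to library size with edgeR's TMM factors. Vehicle 1 and 2 and combination 1 and 2 were the 4 libraries lowest in Lyz2, at 44.9 to 172 CPM against 699.6 to 4182 CPM in the other 8. Xist, transcribed from the inactive X of female cells, exceeded 100 CPM in 3 of 3 vehicle, 2 of 3 PD-901, 1 of 3 5-azacitidine and 0 of 3 combination libraries, although the labels describe the groups as matched for sex. Sex and treatment can therefore not be told apart in the comparison of the combination with vehicle. Contrasts against vehicle share the 3 vehicle libraries, and those of the combination share its 3 libraries, so they are not independent of each other.

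The heavy chain reads were spread over many segments. Ighv3-6 held 4.87% of them (8231 reads), Ighv1-81 4.77%, Ighv1-64 4.29%, Ighv1-55 3.31% and Ighv9-3 3.24%, and 18 of the 91 segments were needed to reach 50%. Ighv3-6 ranged from 8.77 CPM in vehicle 3 to 65.0 CPM in vehicle 1, with a median of 32.9 CPM. Ighv1-81 ranged from 17.0 to 43.2 CPM and Ighv1-64 from 12.8 to 50.5 CPM, both highest in PD-901 2. The Ighv1 family, the largest of the mouse heavy locus, held 57.1% of heavy V reads with 46 members. It was followed by Ighv5 with 8.66%, Ighv2 with 7.52% and Ighv3 with 6.11%. Ighv5-2, the tested heavy segment nearest to the constant region gene Ighm (159.9 kb), had 158 reads, and Ighv1-85, the farthest (2582 kb), had 1706. The nearer 45 heavy segments held 45.3% of the reads.

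Kappa reads were more concentrated. Igkv10-96 held 8.2% of them (18330 reads), Igkv1-110 7.82%, Igkv1-117 6.0%, Igkv1-135 3.48% and Igkv14-111 2.94%, and 14 of 82 segments reached 50%. Per kilobase of transcript Igkv10-96 averaged 205 CPM over the 12 libraries, against 96.5 CPM for Ighv3-6 and 145 CPM for Iglv1. Igkv10-96 ranged from 44.4 CPM in 5-azacitidine 2 to 111 CPM in combination 3. The kappa locus holds segments in both orientations, and the 31 segments on the plus strand held 43.4% of kappa V reads. Igkv3-1, the nearest to Igkc (22.9 kb), had 823 reads, while Igkv1-135, the farthest (3117 kb), was the fourth of all kappa segments with 7768 reads. Igkv1-110 and Igkv1-117 are 97.2% identical, so part of their reads could be exchanged between them.

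Lambda segments carried 8.32% of light chain V reads in the median library, from 5.91% to 13.3%. Iglv1 had 14165 reads (70.5% of lambda), Iglv3 4383 (21.8%) and Iglv2 1534 (7.64%). Iglv1 led in 11 libraries, and in 5-azacitidine 1 Iglv3 took 51.6% of lambda reads. Iglv3 stood at 57.8 CPM there and at 6.34 to 31.5 CPM elsewhere. Between combination and vehicle the log2 changes of Iglv1, Iglv3 and Iglv2 were 0.08, 0.01 and -0.52, none past the threshold (edgeR adjusted p = 0.931, 0.997 and 0.334).

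In summed level the V segments were highest in the combination group and lowest in the 5-azacitidine group. All V segments together stood at 2142, 1720 and 1225 CPM in the vehicle libraries and 1272, 1844 and 1885 CPM with PD-901. They stood at 1321, 971.7 and 1145 CPM with 5-azacitidine and at 1623, 2268 and 2327 CPM with the combination. The combination libraries all lay above the 5-azacitidine libraries, with means of 2073 ± 390 and 1146 ± 175 CPM (SD, n = 3), a ratio of 1.81. The combination overlapped with vehicle (1696 ± 459 CPM) and with PD-901 (1667 ± 343 CPM). No test was made on these sums.

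Heavy V levels were 1005, 792.8 and 467.1 CPM with vehicle, 460.5, 727 and 691.7 with PD-901, 478.3, 368 and 484.9 with 5-azacitidine and 672.9, 968.5 and 998.2 with the combination. The combination exceeded 5-azacitidine 1.98-fold without overlap, and the 3 vehicle libraries spanned nearly the whole range. Kappa V levels were 1026, 842.2 and 703.2 CPM with vehicle, 759.3, 1021 and 1098 with PD-901, 730.2, 550.3 and 599.1 with 5-azacitidine and 894, 1207 and 1222 with the combination. The kappa ratio of combination to 5-azacitidine was 1.77, again without overlap. Lambda V levels overlapped between all groups, with means of 75.3 to 85.2 CPM. Leaving out the 4 libraries lowest in Lyz2 leaves 1 vehicle and 1 combination library, and the log2 difference of combination over vehicle then moved from 0.27 to 1.1 for heavy, 0.37 to 0.8 for kappa and 0.03 to 0.96 for lambda.

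**Figure D1:**
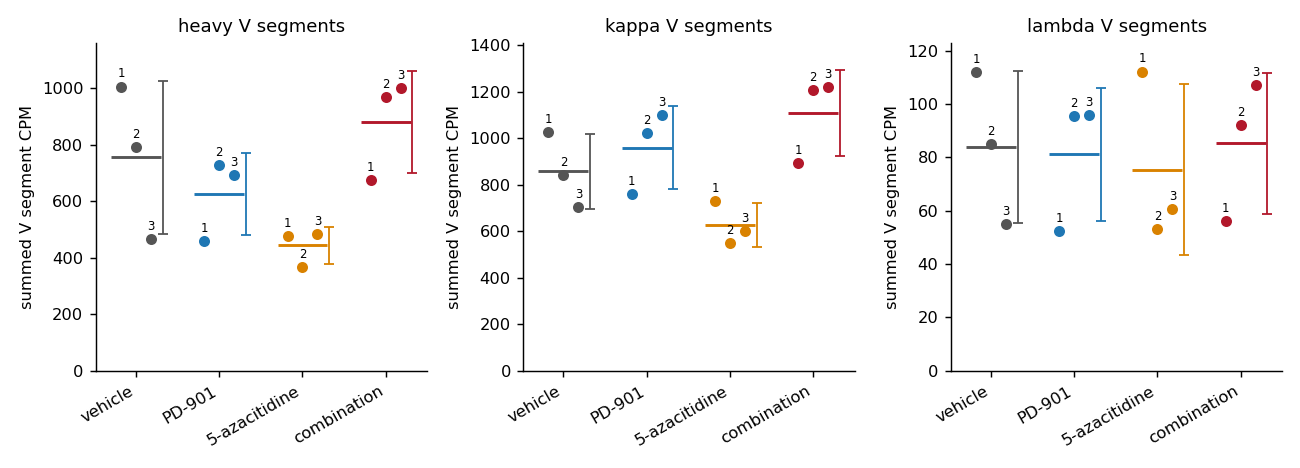
Summed CPM of heavy, kappa and lambda V segments in each library (points, numbered by mouse), with the group mean (line) and SD (bar at the right, n = 3). Combination libraries lie above the 5-azacitidine libraries in heavy (672.9 to 998.2 against 368 to 484.9 CPM) and kappa (894 to 1222 against 550.3 to 730.2 CPM), and lambda groups overlap.

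Diversity was expressed as the effective number of segments, the number of equally used segments that would give the same Shannon entropy of read shares. For kappa it was 44.9, 45.6 and 38.8 in the vehicle libraries, 48.4, 48.1 and 44.8 with PD-901, 43.9, 45.7 and 42.6 with 5-azacitidine and 50.96, 50.6 and 49.5 with the combination. All 3 combination libraries lay above the other 9, with a mean of 50.4 ± 0.786 against 43.1 ± 3.75 with vehicle (SD, n = 3). The 10 leading kappa segments of a library held 41.0% ± 0.833 of kappa V reads with the combination and 48.0% ± 3.3 with vehicle. By the number of segments expected in 8780 reads, a rarefied richness that gives rare segments full weight, the means were 80.7 ± 0.884 and 79.1 ± 0.678, a log2 ratio of 0.03 against 0.23 for the effective number. Nearly all of the 82 kappa segments were seen in every library, so the richness could hardly differ.

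In heavy chain diversity the groups overlapped. The effective number was 57.7, 55.4 and 47.7 in the vehicle libraries, 56.7, 52.8 and 60.4 with PD-901, 53.6, 60.4 and 55.4 with 5-azacitidine and 54.0, 56.9 and 57.6 with the combination. Group means lay between 53.6 and 56.6, and vehicle 3 was the lowest library in both chains. Segment usage was also compared between pairs of libraries by the Bray-Curtis distance, the percentage of reads that would have to be moved between segments to make 2 libraries alike. Its median was 23.3% within groups and 22.7% between groups for heavy, and 17.5% and 19.0% for kappa. The groups differed in this. The heavy median was 16.7% within the combination (14.5 to 17.9%), 23.2% within PD-901, 25.5% within 5-azacitidine and 30.9% within vehicle. Heavy pairs with vehicle 3 had a median of 29.3%. For kappa the median was 20.5% within the combination, 22.1% within vehicle, 16.8% within PD-901 and 17.9% within 5-azacitidine.

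**Figure D2:**
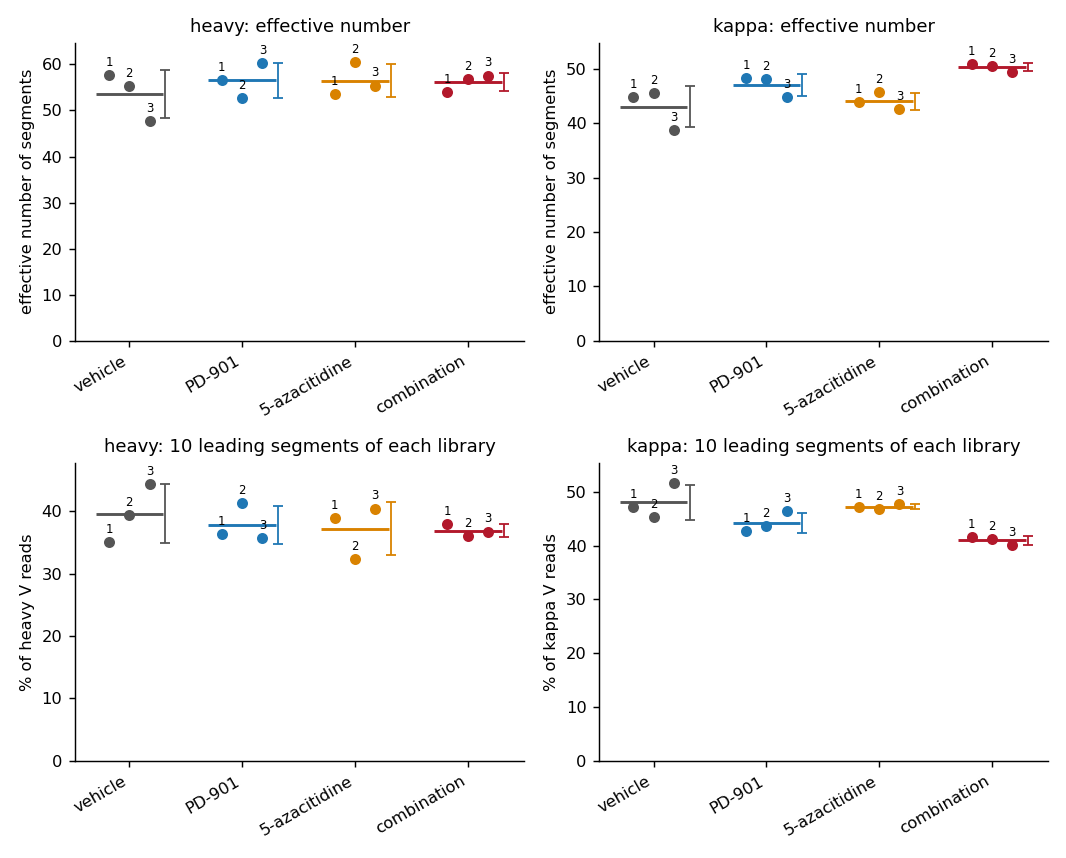
Effective number of segments (upper panels) and share of reads in the 10 leading segments of each library (lower panels, % of V reads of the chain) for heavy and kappa. Points are libraries numbered by mouse, lines group means and bars SD (n = 3). For kappa the combination libraries (49.5 to 50.96) lie above the other 9 (38.8 to 48.4), and vehicle 3 is lowest in both chains.

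The combination was compared with vehicle segment by segment with edgeR's quasi-likelihood test, adjusted by Benjamini and Hochberg over all 17475 tested genes, among them all 176 V segments. It called 10 V segments higher, 8 of them kappa, and 1 lower. These calls are 5.68% and 0.568% of the 176, against 5.78% of all tested genes called higher and 7.97% called lower. Of the 10, Igkv3-9 reached the limit of 100 reads only through the combination libraries, and without it 9 of 175 (5.14%) were called higher. The share called higher thus lay at the background, and the share called lower below it. The median log2 change was 0.29 over the 176 segments, 0.21 for heavy and 0.41 for kappa, against 0.01 over all tested genes. An unadjusted p under 0.05 was reached by 33 segments, 18.8% against 27.5% of all genes. In 24 segments (13.6%) all combination libraries lay above all vehicle libraries, against 16.1% of all tested genes. Without the combination libraries 7 segments, Igkv3-9 among them, fall under 100 reads. The 33 and the 24 were not recounted without these 7, so both are descriptions. The count of 11 calls fell to 6 without combination 2 and to 7 without vehicle 1 or without vehicle 3, and was 19 (17 higher, 2 lower, against 1.47% and 1.6% of all genes) without the 4 libraries lowest in Lyz2. The 11 called segments together held 2.09 to 2.65% of V CPM in the vehicle libraries, 3.12 to 4.61% with the single agents and 5.53 to 6.38% with the combination. They were chosen by this same comparison, so the rise from vehicle to combination is no further result. Most of the V signal lay in segments that were not called.

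Igkv14-126 and Ighv11-2 rose with the combination. The light and heavy chain of these segments together form an antibody to phosphatidylcholine that is characteristic of B-1 cells, a self-renewing B cell population that makes natural antibodies. Igkv14-126 (chr6:67896172-67896642) stood at 7.09, 2.91 and 1.86 CPM with vehicle, 11.3, 12.6 and 6.12 with PD-901, 7.52, 6.21 and 6.58 with 5-azacitidine and 25.3, 14.5 and 26.6 with the combination. All combination libraries lay above the other 9. The change over vehicle was 5.64-fold (log2 2.5 ± 0.43 SE, edgeR adjusted p = 0.00363). Ighv11-2 (chr12:114048241-114048812) stood at 0.935, 0.986 and 0.38 CPM with vehicle, 2.98, 0.427 and 0.764 with PD-901, 1.72, 1.504 and 1.16 with 5-azacitidine and 5.90, 4.84 and 6.82 with the combination. It too was highest in the 3 combination libraries, on 95 to 173 reads each, 7.65-fold above vehicle (log2 2.94 ± 0.63 SE, edgeR adjusted p = 0.00836). Both segments kept their call when each of the 12 libraries was left out in turn. With a term for high Xist in the model neither was called (edgeR adjusted p = 0.0907 for Igkv14-126 and 0.268 for Ighv11-2, whose log2 change was then 1.81). Neither passed against PD-901 (edgeR adjusted p = 0.104 and 0.0504) or against 5-azacitidine (0.0546 and 0.106). Without the 4 libraries lowest in Lyz2 the log2 change was 3.83 for Igkv14-126 and 4.15 for Ighv11-2. That fit holds 1 vehicle and 1 combination library, too few to decide a call. The V exons printed for the pair are those of these genes.

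The other heavy and light pair known for phosphatidylcholine binding in B-1 cells, Ighv12-3 with Igkv4-91, did not pass the test. Igkv4-91 stood at 7.64, 14.2 and 4.26 CPM with vehicle and 29.1, 15.1 and 23.1 with the combination, which do not overlap (log2 1.36, edgeR adjusted p = 0.0735; DESeq2 adjusted p = 0.0157). With PD-901 it was at 8.02, 13.6 and 20.3 CPM and with 5-azacitidine at 18.3, 6.58 and 8.10 CPM, which overlap with the combination. Ighv12-3 was rare, at 0.77, 0.986 and 0.38 CPM with vehicle and 1.02, 0.408 and 0.789 with the combination (log2 0.06, edgeR adjusted p = 0.986). Ighv12-3 had only 8 to 20 reads per library in these groups, which limits what could be detected. Ighv1-72, a heavy segment known from responses to the hapten nitrophenyl, was at 27.6, 37.6 and 10.6 CPM with vehicle and 13.1, 23.3 and 33.4 with the combination (log2 -0.12, edgeR adjusted p = 0.913).

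Igkv4-90 (chr6:68807179-68807708) had the lowest p of all V segments. It stood at 0.935, 0.641 and 2.19 CPM with vehicle, 1.79, 2.32 and 2.18 with PD-901, 2.37, 2.19 and 1.57 with 5-azacitidine and 6.05, 16.9 and 16.2 with the combination. The combination libraries lay above the other 9, 10.3-fold over vehicle (log2 3.36 ± 0.49 SE, edgeR adjusted p = 0.0029), and the call held with each library left out. Leaving out the 4 libraries lowest in Lyz2, which leaves 1 vehicle and 1 combination library, gave a log2 change of 2.88. The other kappa segments called higher were Igkv3-9, Igkv1-88, Igkv3-10, Igkv4-57-1, Igkv3-12 and Igkv6-17, and the other heavy segment was Ighv1-50. Apart from Igkv3-9 their folds ran from 1.97 for Igkv6-17 to 2.79 for Igkv3-10, and each lost its call when at least 1 library was left out. Igkv1-88, for example, stood at 5.72, 2.37 and 2.699 CPM with vehicle and 11.35, 8.77 and 7.65 with the combination, without overlap (log2 1.37, edgeR adjusted p = 0.0195). The Igkv4 family, the kappa family with most members (19), held 13.1% ± 0.559 of kappa V reads with vehicle and 16.6% ± 1.23 with the combination (SD, n = 3). It held 14.5% ± 1.2 with PD-901 and 13.2% ± 0.754 with 5-azacitidine. PD-901 3 at 15.9% lay above combination 1 at 15.2%, and the called Igkv4-90 and Igkv4-57-1 belong to this family.

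Some rare segments were at or near 0 in a whole group. Ighv2-6-8 (chr12:113796138-113796567), the only segment called lower, had 20, 40 and 34 reads with vehicle, 46, 11 and 189 with PD-901, 47, 26 and 22 with 5-azacitidine and 1, 0 and 1 with the combination (edgeR adjusted p = 0.00526). In CPM vehicle was 48.8 times the combination, with an exact interval of 13.1 to 409 at 95% that covers counting error only. Igkv3-9 had no read in any vehicle library, 8, 12 and 5 with PD-901, 0, 1 and 4 with 5-azacitidine and 16, 63 and 16 with the combination. Of its 125 reads 95 lay in the combination libraries, without which it would not have reached the limit of 100, so its difference is a description and its test is not given. Without the 4 libraries lowest in Lyz2 the log2 change of Ighv2-6-8 over vehicle was -4.99. With 1 vehicle and 1 combination library left, that fit cannot decide whether the call of Ighv2-6-8 holds. Ighv8-11, named after its values were seen, had 0, 0 and 62 reads with vehicle, 56, 14 and 95 with PD-901, 54, 13 and 0 with 5-azacitidine and 0, 0 and 0 with the combination, and was not called (edgeR adjusted p = 0.118). It was at 0 in vehicle 1 and 2 and in 5-azacitidine 3 as well.

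**Figure D3:**
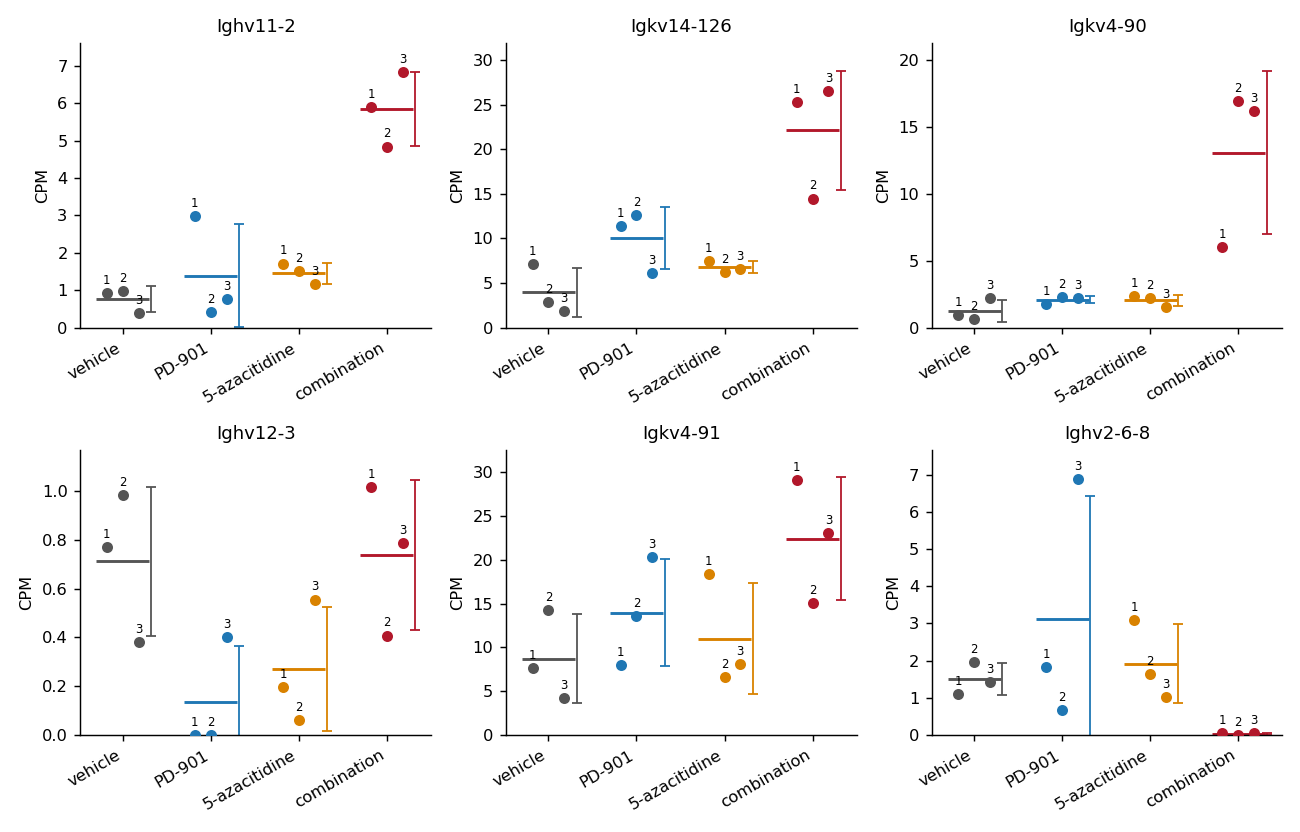
CPM of 6 V segments in each library (points, numbered by mouse), with group mean (line) and SD (bar, n = 3). Ighv11-2, Igkv14-126 and Igkv4-90 are highest in the 3 combination libraries, Ighv12-3 overlaps between vehicle and combination, Igkv4-91 in the combination overlaps with both single agents, and Ighv2-6-8 is near 0 in the combination.

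With a term for high Xist in the edgeR model, 0 of the 176 segments and 0 of all 17475 genes (0.0%) were called between combination and vehicle. An unadjusted p under 0.05 was reached by 21 segments. The share of all genes under that limit in this fit is not given, so the 21 cannot be read against a background. The median standard error of the segments rose from 0.53 to 0.78 on the log2 scale. The log2 changes in that fit were 3.61 for Igkv4-90, 2.26 for Igkv14-126, 1.81 for Ighv11-2 and -4.97 for Ighv2-6-8, with edgeR adjusted p from 0.0563 to 0.268. Against PD-901 and 5-azacitidine, whose groups hold libraries of both kinds, Igkv4-90 and Ighv2-6-8 passed in that fit, with adjusted p = 0.0243 and 0.0166 against PD-901 and 0.0395 each against 5-azacitidine (edgeR). They were among 2 segments called against PD-901 (1.14%, against 2.98% of all genes) and 10 against 5-azacitidine (5.68%, against 1.16% of all genes). Without that term, DESeq2 called 19 segments higher and 2 lower, of 156 to which it gave an adjusted p, and 10 of them were edgeR calls. Over all genes DESeq2 called 11.1% higher and 14.9% lower.

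Many other genes of the B lineage were lower in the same comparison, which was not set against the V segments by a test. The gene lists were chosen with results of these data known, so their counts are descriptions. Beside them, edgeR called 5.78% of all tested genes higher and 7.97% lower with the combination. Of 14 markers of B cell precursors 10 were lower with the combination (median log2 -1.88) and of 10 markers shared by B cells 9 were lower (median -1.50), none higher. Of 12 mature B cell markers edgeR called 0, with 3 at an unadjusted p under 0.05, and DESeq2 called 1. Rag1, the recombinase that cuts V segments, fell from 55.2, 45.2 and 51.5 CPM to 3.56, 17.7 and 2.41 CPM (log2 -2.69, edgeR adjusted p = 0.0286). Rag2 (-2.30) and Dntt, which adds bases at the joints (-1.69), fell too, among 4 lower and 1 higher of 15 genes of V(D)J recombination. The one that rose was Xrcc5, of the Ku complex (log2 1.47, edgeR adjusted p = 0.00475). In the fit with the Xist term no gene of these lists was called, and without combination 1 the calls over all B lineage and constant region genes went from 31 to 12. Of 18 regulators of immunoglobulin genes 11 were lower, among them Irf4 (-1.83), Spib (-2.49), Ebf1 (-2.25) and Bcl6 (-1.18). Some genes are in several lists, so the list counts do not add up. Rag1, Rag2, Dntt and Ebf1 also count among the precursor markers, Spib among those shared by B cells and Irf4 among the plasma cell markers.

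Among the constant region, secretory pathway and plasma cell lists, the plasma cell markers held most calls, all lower. The shares of all tested genes called were 5.78% higher and 7.97% lower. Of 12 constant region genes 1 was called, Ighg2b, at 157, 94.3 and 85.0 CPM with vehicle and 259.5, 334.2 and 196.6 with the combination (log2 1.23, edgeR adjusted p = 0.0283). Igha, the constant gene with most reads, took 71.6% ± 10.7 of heavy constant reads with vehicle and 75.4% ± 5.26 with the combination (SD, n = 3) and did not pass (log2 0.11), nor did Igkc (0.39), Jchain (0.37) or Ighm (-0.73). Of 14 genes of the secretory pathway 0 were called by edgeR, with 2 at an unadjusted p under 0.05, and DESeq2 called 2. Of 12 plasma cell markers 3 were lower, Irf4, Slamf7 and Sdc1, and the list's summed level ranged from 1063 to 1351 CPM with vehicle and 1130 to 1310 with the combination. None of those 12 markers was at 0 in any library.

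Ratios of reads within a library need no scaling between libraries. V reads per Cd79a read, a gene all B cells express, averaged 19.3 ± 4.83 with vehicle, 11.8 ± 4.1 with PD-901, 18.9 ± 13.4 with 5-azacitidine and 69.4 ± 21.1 with the combination (SD, n = 3). The lowest combination library was at 50.4 and the highest other library at 33.9. V reads per read of Jchain, which joins IgA and IgM units in plasma cells, averaged 3.51 ± 0.151, 2.75 ± 0.523, 3.03 ± 0.347 and 3.30 ± 0.663 in the same order, and the combination overlapped with every other group. Kappa V reads per 100 Igkc reads were 49.9 ± 3.38 with vehicle and 49.5 ± 11.8 with the combination.

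Markers of other cell types moved as well in this comparison, in which 5.78% of all tested genes were called higher and 7.97% lower. All 8 erythroid markers were higher with the combination, their summed level being 730.5 to 1187 CPM with vehicle and 1325 to 4643 with the combination. Of 8 neutrophil markers 3 were lower (summed level 28130 to 57520 and 24410 to 27960 CPM), and of 10 T cell markers edgeR called 0, with 1 at an unadjusted p under 0.05, and DESeq2 called 1 (61.6 to 87.8 and 72.6 to 105 CPM). Of 6 monocyte markers 3 were lower (3330 to 7059 and 2141 to 2647 CPM). No marker of these lists was at 0 in any library, and the part of other cell types in the V segment values was not tested.

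**Figure D4:**
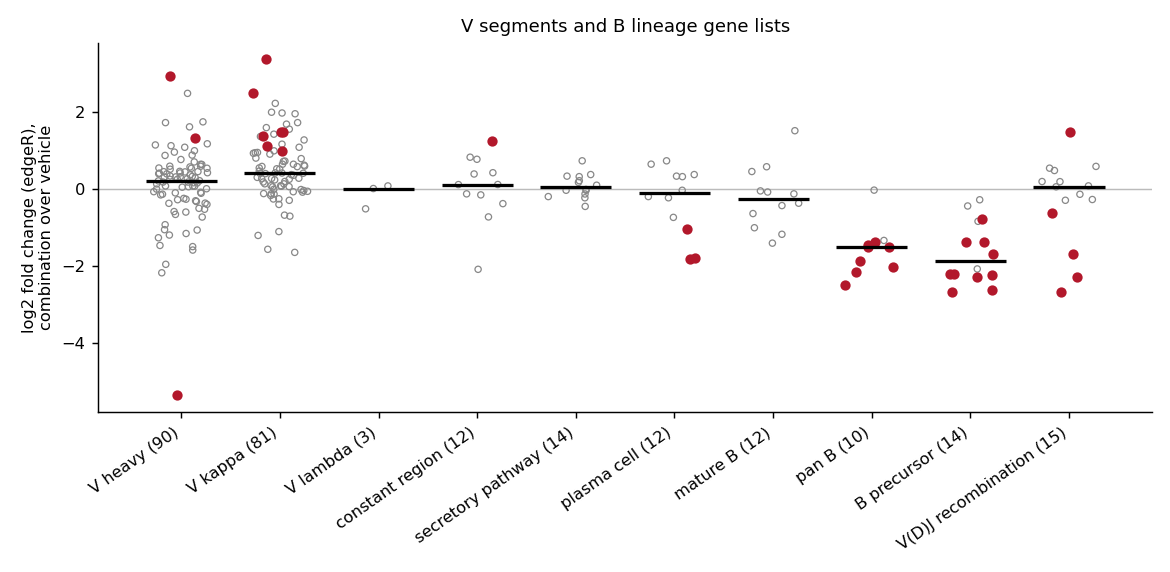
Log2 fold change of the combination over vehicle (edgeR) for each V segment and for the genes of 7 lists, with the number of genes plotted in brackets. Filled points passed the test, open points did not, and black lines are medians, at -1.88 for B precursor and -1.50 for pan B genes. Ighv8-11 and Igkv3-9, at 0 in a whole group, are left out of the plot.

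For the MEK inhibitor by itself against vehicle, edgeR called 0 of 176 segments and 0.0% of all tested genes, and DESeq2 called 0 segments and 0.0286% of the genes to which it gave an adjusted p. An unadjusted p under 0.05 was reached by 13 segments, 7.39% against 4.88% of all genes, and the median log2 change of the 176 was 0.02. Apart from Igkv3-9, whose test is not given, the lowest p values belonged to Ighv1-4 (log2 -3.01) and Igkv14-126 (log2 1.35), with an edgeR adjusted p of 0.96 each. Without the 4 libraries lowest in Lyz2, which leaves vehicle 3 as the one vehicle library, 4 segments (against 0.0779% of all genes) were called, Ighv1-4 among them. The value of Ighv1-4 rested on vehicle 3, without which it was -0.47 (edgeR adjusted p = 0.851).

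5-azacitidine alone gave lower values in most V segments, but none passed edgeR's test. Of 176 segments 145 had a log2 change under 0, and the median was -0.57, with -0.74 for heavy and -0.42 for kappa, against -0.01 over all genes. An unadjusted p under 0.05 was reached by 31 segments, 17.6% against 15.3% of all genes. edgeR called 0 segments and 0.00572% of all genes, and DESeq2 called 6 segments, all lower, against 2.53% of its genes called lower. In edgeR 1 segment was called without vehicle 3. Ighv1-7 had the lowest p, at 11.3, 10.7 and 7.97 CPM with vehicle and 3.83, 3.76 and 2.55 with 5-azacitidine, which do not overlap (log2 -1.57 ± 0.33 SE, edgeR adjusted p = 0.0946). Igkv9-123 was at 0.935, 1.43 and 1.48 CPM with vehicle and at 0, 0 and 0.0463 with 5-azacitidine. It reached the limit of 100 reads only through the vehicle libraries, so this difference too is a description with no test. Without the vehicle libraries 10 segments, Igkv9-123 among them, fall under that limit. The 31 were not recounted without these 10 and are a description. Igkv5-39 was at 15.9, 20.8 and 12.2 CPM with vehicle and at 8.51, 4.95 and 7.41 with 5-azacitidine (log2 -1.23, edgeR adjusted p = 0.13).

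Against 5-azacitidine the combination was higher in most V segments. Of 176 segments 154 had a log2 change above 0, with a median of 0.97, 0.95 for heavy and 1.00 for kappa, against 0.00 over all genes. In 63 segments (35.8%) all combination libraries lay above all 5-azacitidine libraries, against 9.1% of all tested genes. Without the combination libraries 7 segments, Igkv3-9 and Igkv7-33 among them, fall under the read limit of the set. The 154 and the 63, and the DESeq2 counts given below, were not recounted without these 7. The 154 and the 63 are therefore descriptions. None of these 7 is among the edgeR calls listed below. Segments of 1 library share its B lineage content and scaling, so the 176 are not independent observations. edgeR called 9 segments higher and 1 lower, 5.11% and 0.568% of the 176 against 0.252% and 1.07% of all tested genes. DESeq2 called 48 of 158 segments higher and 1 lower, against 2.1% and 5.53% of its genes. The 9 higher were Ighv1-7, Igkv4-90, Igkv5-39, Igkv3-10, Igkv6-17, Igkv12-44, Ighv1-50, Ighv1-76 and Igkv6-20, and the lower one was Ighv2-6-8. Ighv1-7 (chr12:114538495-114538965) stood at 17.5, 12.8 and 13.0 CPM with the combination, against the 2.55 to 3.83 CPM given for 5-azacitidine, 4.29-fold apart (log2 2.10 ± 0.33 SE, edgeR adjusted p = 0.025). Igkv5-39 was 18.8, 24.8 and 21.1 CPM with the combination (log2 1.63, edgeR adjusted p = 0.0303). The number of calls was 0 without 5-azacitidine 2 or without 5-azacitidine 3, 1 without combination 1 or without combination 3, 6 without PD-901 2 or without PD-901 3, and 21 without vehicle 3.

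Against PD-901 the combination had 4 segments higher and 1 lower by edgeR, 2.27% and 0.568% of the 176 against 1.69% and 5.12% of all tested genes. Igkv4-90 was 6.24-fold higher (log2 2.64 ± 0.47 SE, edgeR adjusted p = 0.00487) and Ighv2-6-8 lower (adjusted p = 0.00355), on the read numbers given for both. Ighv14-4, Ighv1-76 and Igkv4-79 were also higher (log2 1.64, 1.43 and 2.38, edgeR adjusted p = 0.0352, 0.0355 and 0.0421). Each of these 3 lost its call when some of the libraries were left out. The median log2 change over the 176 was 0.36. DESeq2 called 14 of 156 segments higher and 1 lower, against 5.84% and 11.1% of its genes. Without PD-901 3 or without vehicle 2 the count of calls was 2, without any 1 of the combination libraries it was 3, and without vehicle 3 it was 9.

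The interaction, the departure of the combination from the sum of both single effects on the log2 scale, was called for 0 segments and 0.0% of all genes by edgeR. An unadjusted p under 0.05 was reached by 49 segments, 27.8% against 10.7% of all genes, and DESeq2 called 11 (1.72% of all genes). The 49, not recounted without segments that reach the read limit only through vehicle or combination libraries, are a description. The median interaction over the 176 was 0.94, 1.14 for heavy and 0.70 for kappa, against -0.02 over all genes. Ighv2-6-8, Ighv1-7 (log2 2.19) and Ighv1-76 (log2 2.43) had the lowest p, with edgeR adjusted p = 0.104, 0.106 and 0.138. Without 5-azacitidine 1 the interaction was called for 4 segments and without vehicle 3 for 1. In a joint test of any difference among the 4 groups edgeR called 15 segments, 8.52% against 6.96% of all genes, and 1 without combination 1 or 4 without combination 3.

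Vehicle 3 carried 2 segments far above the other libraries. Ighv1-4 (chr12:114487136-114487569) took 13.3% of its heavy V reads (1474 reads), against a median of 0.479% and at most 1.01% in the other 11 libraries, 27.8 times that median. In CPM it was 4.398, 3.70 and 62.2 with vehicle and between 1.38 and 6.82 in the other groups, and vehicle 3 held 63.5% of all its reads. Igkv19-93 (chr6:68736297-68736780) took 13.0% of the kappa V reads of vehicle 3 (2170 reads), against a median of 1.53% and at most 2.08% elsewhere. Its CPM was 15.7, 17.3 and 91.5 with vehicle. The same library was also highest in Ighv2-3 (4.49% against a median of 0.653%) and Igkv4-63 (2.0% against 0.444%). Its Ighm level was the highest of all libraries, 1036 CPM against 267.9 to 924 in the other 11, and Ighm made up 33.7% of its heavy constant reads. Without vehicle 3 the log2 change of the combination over vehicle moved from -1.96 to 0.58 for Ighv1-4 and from -1.57 to -0.24 for Igkv19-93, neither called (edgeR adjusted p = 0.156, 0.441, 0.16 and 0.811 in that order). Without the 4 libraries lowest in Lyz2, vehicle 3 is the only vehicle library left, and the log2 change of Ighv1-4 with the combination was then -3.22.

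**Figure D5:**
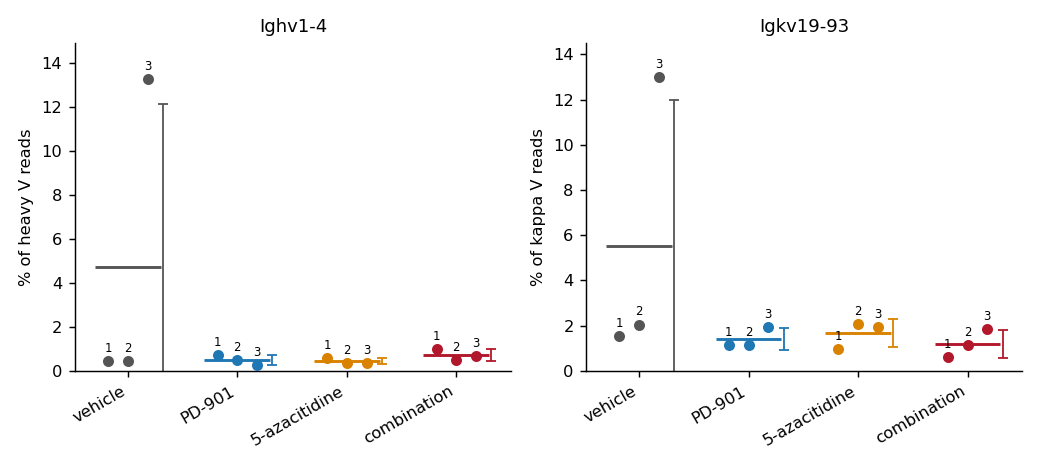
Share of heavy V reads in Ighv1-4 and of kappa V reads in Igkv19-93 in each library (points, numbered by mouse), with group mean (line) and SD (bar, n = 3). Vehicle 3 stands at 13.3% and 13.0%, and the other 11 libraries are at or below 1.01% and 2.08%.

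Segments with at least 1% of a chain's reads and at least 3 times the median of the other 11 libraries were counted in every library in the same way. There were 24 such pairs of segment and library, in 20 segments, 5 of them in vehicle 3, 4 in 5-azacitidine 1 and 0 in 5-azacitidine 3. Ighv2-6 met the limits in vehicle 1 (2.18%), 5-azacitidine 1 (2.08%) and 5-azacitidine 2 (1.24%). Igkv4-90 met them in combination 2 (1.4%) and combination 3 (1.33%). Outside vehicle 3 the largest excess was that of Ighv1-71 in combination 2 (1.16%, 7.29 times the median), a segment whose reads cannot be told from those of its identical copy Ighv1-62-2.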

How the data were processed

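Bone marrow RNA of 12 mice was sequenced in read pairs. The unit is the raw count: the authors deposited reads per gene for each mouse, not normalized. The submitters' processing notes list STAR 2.7.2a, featureCounts, Subread 1.6.5 and build mm10. Strand setting, treatment of reads matching several genes and annotation release are not stated in these sources. Coordinates of all 176 segments matched GENCODE M21.

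Groups follow the labelled agent, with mice numbered in accession order. With edgeR 4.0.16 (R 4.3.3), genes were filtered (minimum count 10, minimum total 15; 17475 kept), scaled by TMM (factors 0.929 to 1.07) and fitted with 1 mean per group over 12 libraries (8 residual degrees of freedom, two-sided quasi-likelihood F tests, Benjamini-Hochberg threshold 0.05), after a trial on simulated counts. Total counts were 15356919 to 27148190, which limits precision for rare segments. CPM use the same scaling. Intervals cover counting error only.

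Members and gene lists were chosen with earlier results of these data known. Named segments are the 5 with most reads per chain, each library's leaders, up to 5 with the lowest p per direction and contrast among calls (3 where none), those nearest and farthest from the constant genes, limit neighbours, those with most of their reads in 1 library and 6 with a known history. Further calls and segments high in single libraries were named after their values were seen. Alternatives were DESeq2 1.42.0, its size factors, other filters, only the groups compared, a Xist term, left-out libraries, higher read limits and other diversity measures.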

Additional observations from a re-analysis of the deposited data

How the results depend on the processing

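No paired analysis was possible because the labels give no replicate number that groups share. With no low-count filter 29 V segments were called between combination and vehicle, 4 for PD-901 and 16 for 5-azacitidine over vehicle, 21 for the combination over PD-901, 56 over 5-azacitidine, 30 for the interaction and 71 for any difference. These are 16.5%, 2.27%, 9.09%, 11.9%, 31.8%, 17.0% and 40.3% of the segments, against 7.79%, 0.154%, 1.66%, 5.1%, 2.86%, 1.16% and 7.63% of all genes in that fit. DESeq2 called 21, 0, 6, 15, 49, 11 and 45 in the same order, or 13.5%, 0.0%, 4.0%, 9.62%, 31.0%, 6.29% and 28.8% of the segments with an adjusted p, against 26.1%, 0.0286%, 4.82%, 17.0%, 7.63%, 1.72% and 23.1% of all such genes. With the Xist term there were 0 calls for the combination over vehicle, 2 over PD-901 and 0 for any difference, and 0 of the B lineage and constant region genes, 31 without it. Fits of only the groups compared gave 12 calls over PD-901 and 1 over 5-azacitidine, and segments with at least 1000 reads gave 2 over PD-901. Without the 4 libraries lowest in Lyz2, an alternative chosen after seeing the data in which the lone vehicle and combination libraries are assumed to vary like the others, the counts were 19, 4, 3, 9, 18, 2 and 23, against 3.07%, 0.0779%, 0.119%, 3.17%, 1.29%, 0.137% and 2.52% of all genes, with 12 B lineage genes. The log2 differences of combination over vehicle were then 1.1 for heavy, 0.8 for kappa and 0.96 for lambda level, and 0.27 for heavy and 0.35 for kappa effective number. The inverse Simpson index gave 0.23 for heavy (0.07 by effective number) and 0.43 for kappa (0.23), and rarefied richness 0.03 for kappa. The cause of these differences was not tested.

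Leaving out 1 library at a time gave 6 to 14 calls between combination and vehicle, 0 to 0 for PD-901, 0 to 1 for 5-azacitidine, 2 to 9 over PD-901, 0 to 21 over 5-azacitidine, 0 to 4 for the interaction, 1 to 21 for any difference and 12 to 34 B lineage genes. Level differences ranged from -0.04 to 0.51 for heavy, 0.24 to 0.52 for kappa and -0.25 to 0.3 for lambda, and effective number from -0.01 to 0.13, 0.15 to 0.27 and -0.19 to 0.06. With 3 mice per group and rare segments on fewer than 100 reads per library, small changes were not detectable.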

Other observations

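Immunoglobulin J segments held 22338 reads in 12 of 14 genes. Their summed level was 92.8 ± 18.2 CPM with vehicle, 96.2 ± 20.8 with PD-901, 58.3 ± 4.3 with 5-azacitidine and 107.9 ± 22.4 with the combination (SD, n = 3). V pseudogenes held 2743 reads in 66 of 158 genes, with means of 10.8, 16.2, 11.9 and 5.10 CPM in the same order of groups. T cell receptor V segments held 2045 reads, with means of 7.38, 7.13, 8.66 and 10.04 CPM. No test was made on these sums.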
